A study of Mus musculus with 12 samples.

Results

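The transcripts described here encode the kinetochore, the spindle assembly checkpoint and the chromosomal passenger complex, and were measured by RNA-Seq in fully grown mouse oocytes at the germinal vesicle (GV) stage. Members were the genes of the expression table whose symbol begins with Cenp followed by a letter, together with named subunits of the KMN network, the checkpoint and the passenger complex. The rule found 42 of the 24255 genes in the table, and 19 of them carried a Cenp symbol. Knl1 had no row under that symbol and was present under its older symbol, Casc5. An FPKM (fragments per kilobase of transcript, relative to all fragments mapped in the library) of at least 1 in at least 1 library was reached by 40 members, and by 11233 genes, or 46.3% of all. Cenpb and Nsl1 did not reach it and were not tested.

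The kinetochore is the protein assembly that joins a chromosome to spindle microtubules. Its inner layer, the constitutive centromere-associated network (CCAN), sits on nucleosomes that contain the histone variant CENP-A, and its outer layer, the KMN network, binds the microtubule. The spindle assembly checkpoint delays anaphase while kinetochores are unattached, and the chromosomal passenger complex, with its Aurora kinase, corrects faulty attachments. A GV oocyte is arrested in prophase of meiosis I and stores mRNA for the divisions that follow, when transcription is silent.

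The 4 groups compared had 3 libraries each, and each library was made from 20 GV oocytes of females labelled C57BL/6 (C57BL/6J in the study's methods), 3 weeks old, collected 46 h after PMSG (5 IU per mouse), with RNA amplified by Smart-seq2. WT oocytes were wild type. MUT oocytes came from females homozygous for D166G, an ENU-induced missense mutation of Dpagt1, which is carried by every cell of the animal. Dpagt1 encodes the enzyme that starts the dolichol-linked precursor of N-glycans. GcKO oocytes (Dpagt1F/F Gdf9CRE/+) came from females whose floxed Dpagt1 was recombined in oocytes by a Gdf9-driven Cre, active from the primordial follicle on. AmcKO oocytes (Dpagt1F/F Amhr2CRE/+) carried the floxed allele and were surrounded by granulosa cells in which Amhr2-driven Cre was expressed. The labels do not say that the libraries of a group came from different females, so the p-values measure only the spread between these libraries. WT and AmcKO libraries are numbered 4 to 6 and MUT and GcKO libraries 1 to 3, so that anything that follows the numbers cannot be told apart from the difference of MUT and GcKO from WT.

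The libraries differed as a whole. The summed FPKM of a WT library was 1167362 to 1226005, that of an AmcKO library 883256 to 1107925, that of a MUT library 589617 to 611597 and that of a GcKO library 482314 to 684212. Between 9359 and 9622 genes were above 0 in WT and between 11208 and 11467 in MUT libraries. FPKM holds no counts. From the steps between low values, 1 fragment was worth between 2.28 and 2.66 times as much FPKM in WT as in MUT replicate 2, against 1.08 to 1.21 times in the other MUT libraries, 1.21 to 1.5 times in AmcKO and 0.901 to 1.5 times in GcKO, so that low transcripts were measured more coarsely in WT. Dpagt1 itself was listed at 0 in all WT and AmcKO libraries, at 0.878, 0.408 and 0.985 FPKM in MUT and at 0, 0.366 and 0 FPKM in GcKO libraries. These values check no genotype. The 10 oocyte markers summed to between 41986 and 47533 FPKM in WT and between 17162 and 17638 in MUT libraries. Dppa3 alone made up 26360 to 30140 FPKM of this in WT and 7935 to 8755 in MUT libraries. Of the 10 markers, 5 were called lower in MUT and 4 in GcKO, against 11.3% and 11.4% of all genes, and 0 higher in either. Their part in the results was not tested. Of 12 granulosa cell markers, Amh, Amhr2 and Foxl2 were at 0 in all libraries, and the list summed to between 99.5 and 150.5 FPKM in every library, of which Serpine2 made up 86.7 to 136 FPKM. Of the 7 granulosa markers tested, 3 were called higher in MUT and 0 in GcKO or AmcKO, against 9.46%, 8.71% and 0.0979% of all genes. These 3 were listed at 0 in all WT libraries. In MUT libraries they were at 2.35 to 4.26 FPKM (Gja1), 1.13 to 5.45 FPKM (Inha) and 0.642 to 3.09 FPKM (Hsd17b1). Cyp19a1, of the same list, went the other way, at 15.1 to 20.1 FPKM in WT and 8.88 to 13.4 in MUT libraries, and was not called. The part of these markers in the MUT results was not tested.

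The members spanned a wide range of levels in the WT oocyte. Birc5, which encodes survivin, the small subunit of the passenger complex that brings it to chromosomes, was at 4728, 4548 and 5017 FPKM in WT replicates 4, 5 and 6. Mad2l1, the checkpoint inhibitor of CDC20, followed at 1444, 1292 and 1397 FPKM, and Spc25, a subunit of the microtubule-binding NDC80 complex, at 877, 805 and 936 FPKM. These 3 transcripts made up 73.7% of the summed FPKM of all members in WT, 65.4% in MUT, 65.7% in GcKO and 72.9% in AmcKO oocytes. The median member was at 15.9 FPKM in WT, and 26 of 42 members were at a mean of at least 10 FPKM. At the other end, Cenpi was listed at 0 in all WT libraries, and Cenpb did not exceed 0.814 FPKM in any library.

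**Figure D1:**
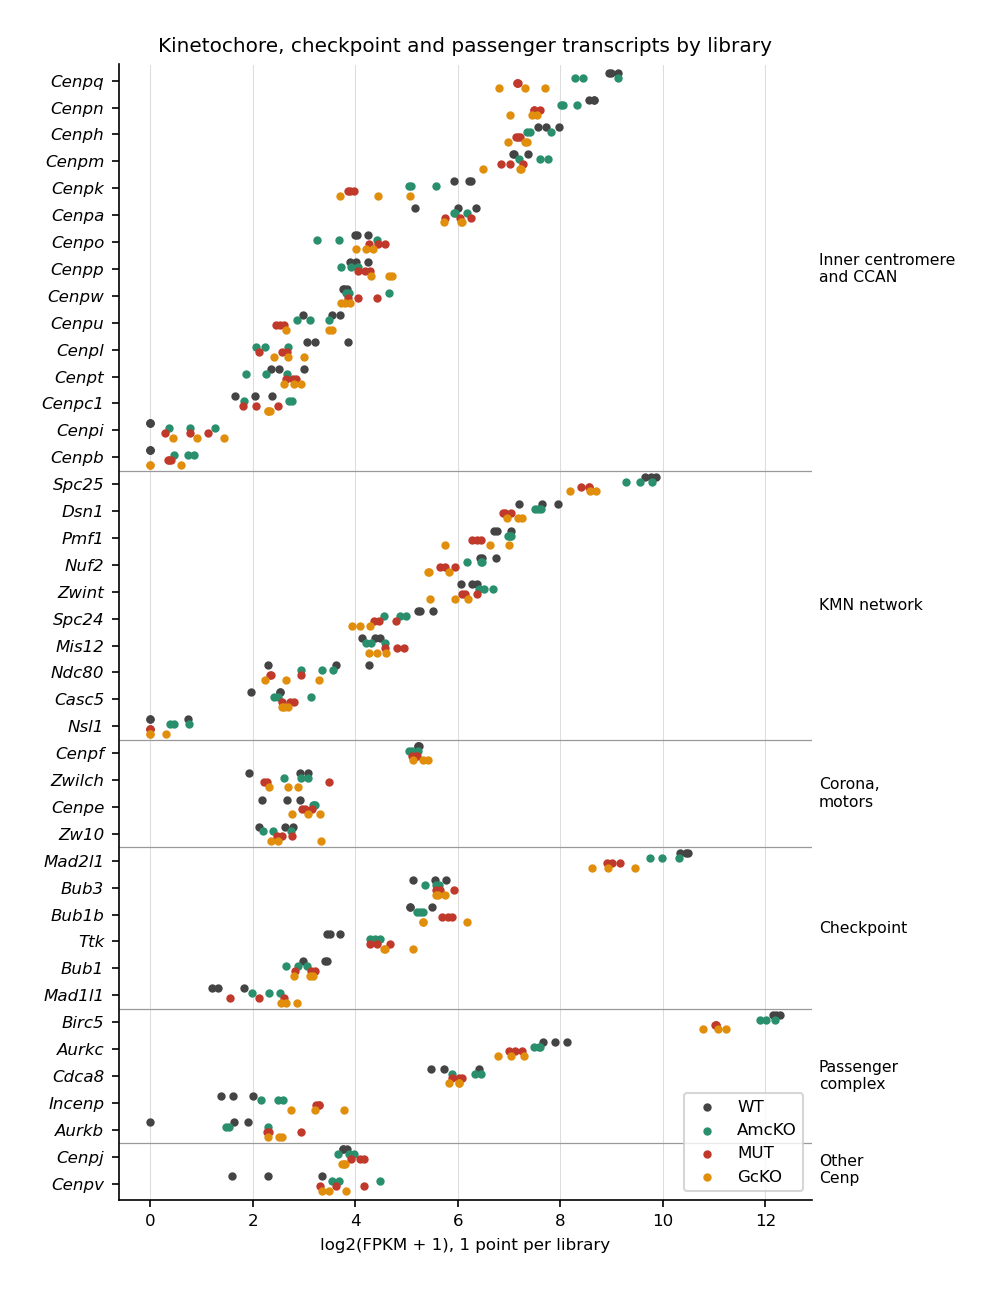
FPKM of each member in each library on a log2(FPKM + 1) axis, ordered by complex and by WT mean, with 1 point per library and 3 libraries per group. Birc5, Mad2l1 and Spc25 lie highest, and their MUT and GcKO points lie to the left of the WT points, while those of Incenp and Ttk lie to the right.

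Subunits of 1 complex were not stored at like levels. Within the passenger complex, Birc5 exceeded its scaffold partner Incenp by 1522 to 2983 times in WT libraries. Within the NDC80 complex, Spc25 exceeded Spc24, with which it forms the inner end of the complex, by 20.9 to 24.3 times. Aurkc, the Aurora kinase that is most abundant in germ cells, was at 202, 237 and 281 FPKM in WT, against 2.77, 2.09 and 0 FPKM for Aurkb, its counterpart of somatic cells. The Aurkc level is uncertain, because 5 annotated pseudogenes match its transcript at up to 99.2% identity over 849 to 1069 nt and how the authors' counting divided such fragments is not stated.

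The question of the first comparisons was which of these stored transcripts differ when Dpagt1 is mutated in the whole animal or removed from the oocyte. In MUT oocytes 12 of the 40 tested members were lower and 4 higher than in WT at a limma adjusted p under 0.05, against 11.3% and 9.46% of all 11233 genes tested. The lower members were Cenpk, Cenpq, Mad2l1, Spc25, Birc5, Cenpn, Cenpl, Spc24, Aurkc, Nuf2, Dsn1 and Cenph, and the higher ones were Incenp, Aurkb, Cenpv and Ttk. In GcKO oocytes 10 members were lower and 3 higher, against 11.4% and 8.71% of all genes, namely Cenpq, Cenpk, Mad2l1, Cenpn, Spc25, Spc24, Birc5, Nuf2, Aurkc and Cenph lower and Incenp, Mad1l1 and Ttk higher. In either direction, 16 of 40 were called in MUT and 13 in GcKO, against 20.8% and 20.2% of all genes. In MUT, all 3 libraries were below all WT libraries for 15 members and above them for 11, against 16.9% and 20.2% of all genes, and in GcKO for 11 and 8, against 16% and 18.2%. Both comparisons use the same 3 WT libraries. A library of 20 oocytes does not tell less mRNA per oocyte from fewer oocytes that hold it. The median log2 difference over the tested members was 0.051 in MUT and -0.0031 in GcKO, and over all genes it was 0.12 in each.

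**Figure D2:**
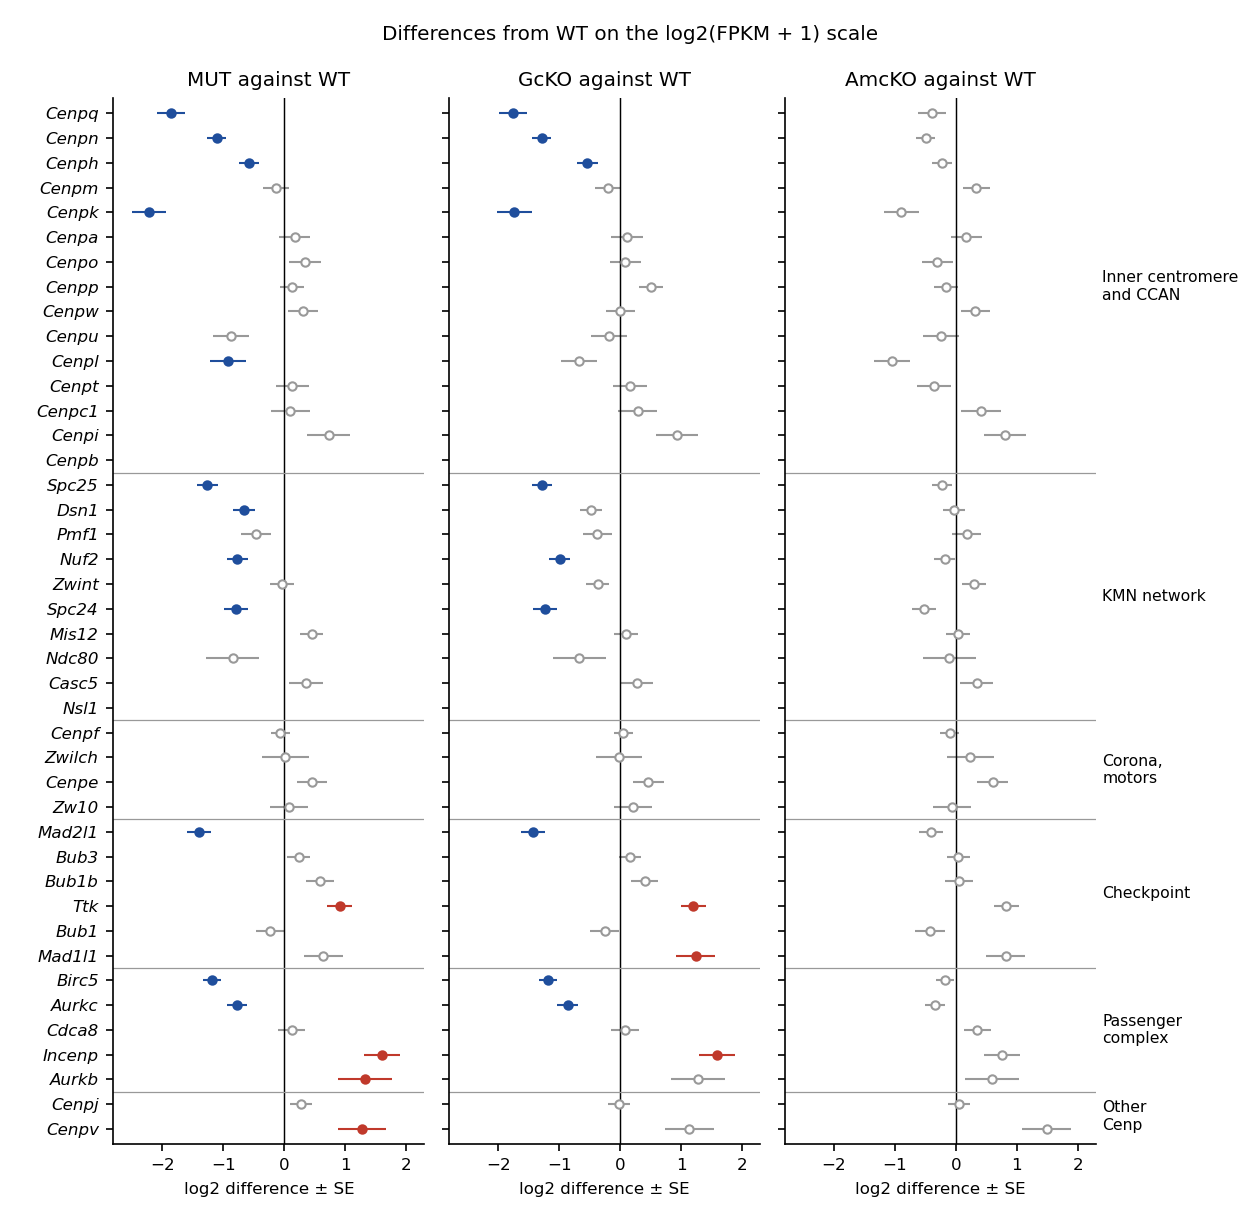
Difference from WT of each tested member on the log2(FPKM + 1) scale with its limma standard error, in MUT, GcKO and AmcKO oocytes (3 libraries per group), with filled points for members called at an adjusted p under 0.05. Of 40 members, 16 were called in MUT, 13 in GcKO and 0 in AmcKO oocytes.

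How these directions read depends on the scale. As deposited, the members summed to 9155 to 9813 FPKM in WT and to 4530 to 4588 FPKM in MUT libraries, but this was 0.782 to 0.8005% of the library sum in WT and 0.741 to 0.773% in MUT. With every library scaled to the same sum, the median of all genes moved to 0.71 in MUT and 0.74 in GcKO, and the called members became 5 lower and 23 higher of 40 in MUT, where 2.23% of all genes were lower and 41.3% higher, and 3 lower and 27 higher in GcKO, where it was 2.14% and 42.4%. With quantile normalization they were 8 lower and 3 higher in MUT (6.41% and 6.7% of all genes) and 7 lower and 2 higher in GcKO (5.92% and 6.15%). Cenpk, Cenpq, Mad2l1, Incenp and Ttk kept their direction and their call under both of these and under a loess correction for abundance, added after seeing the data, in both comparisons, and Spc25 did so in MUT. Birc5 lost its call under quantile normalization, at a log2 difference of 0.054 in MUT and 0.13 in GcKO, and Cenph turned to between 0.013 and 0.50 under the 3 scales. Under same-sum scaling Aurkc, Nuf2 and Dsn1 turned positive in both comparisons, and Spc24 in MUT but not in GcKO.

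**Figure D3:**
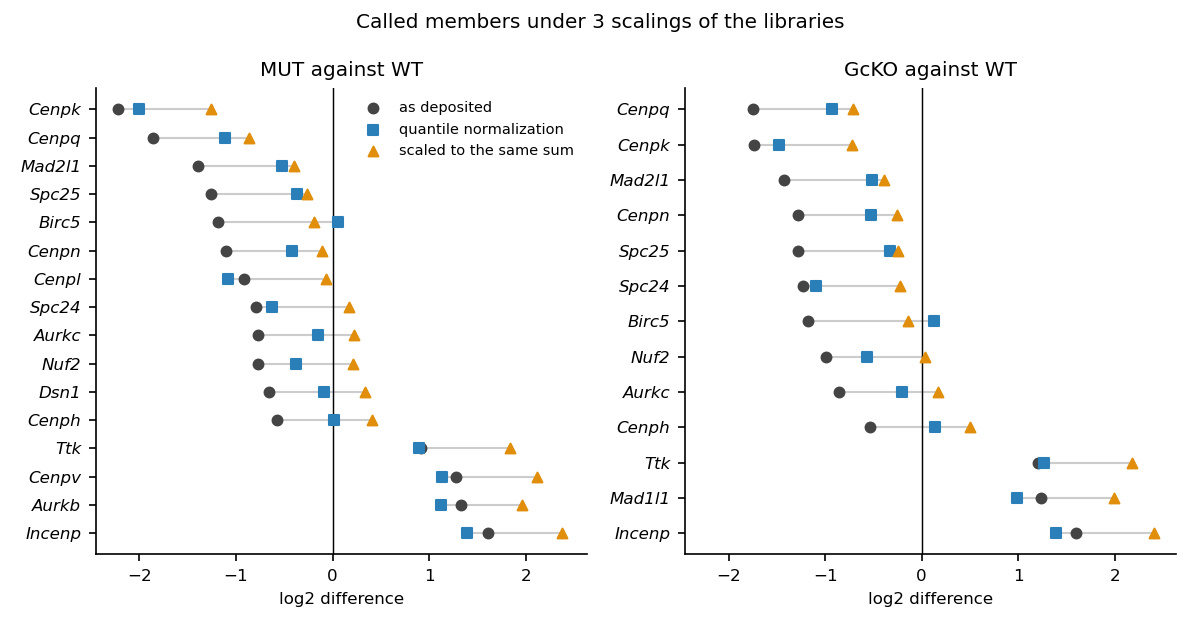
Log2 difference from WT of the members called in MUT (16) and in GcKO (13), as deposited, after quantile normalization and with libraries scaled to the same sum; 3 libraries per group. Cenpk, Cenpq and Mad2l1 stay left of 0 and Incenp and Ttk right of 0 on every scale, while Birc5 and Cenph cross 0 under quantile normalization and Cenph, Nuf2, Aurkc and, in MUT, Dsn1 and Spc24 under same-sum scaling.

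In the inner centromere and CCAN, 5 of 14 tested members were lower in MUT and 4 in GcKO, against 11.3% and 11.4% of all genes. In both, 0 were higher, against 9.46% and 8.71%. Cenpk, a subunit of the CENP-H/I/K/M complex, fell most in MUT. It was at 73.5, 75.2 and 59.5 FPKM in WT replicates 4 to 6, at 14.0, 14.7 and 13.5 in MUT and at 11.98, 20.7 and 32.3 in GcKO replicates 1 to 3, and at 32.1, 46.5 and 33.1 in AmcKO replicates 4 to 6. All MUT, GcKO and AmcKO libraries were below the lowest WT library. The MUT libraries were also below those of AmcKO, while GcKO replicate 3 reached the lowest AmcKO library. The log2 difference from WT was -2.22 (SE 0.28, adjusted p = 0.000176) in MUT and -1.73 (SE 0.28, adjusted p = 0.000808) in GcKO.

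Cenpq belongs to the CENP-O/P/Q/U/R complex, which binds microtubules and helps to recruit kinetochore partners. It was at 495, 507 and 558 FPKM in WT, 141, 143 and 142 in MUT, 111, 157 and 208 in GcKO and 347, 560 and 313 in AmcKO oocytes. The MUT and GcKO ranges lay below those of WT and AmcKO, at a log2 difference from WT of -1.86 (SE 0.23, adjusted p = 0.000154) in MUT and -1.75 (SE 0.23, adjusted p = 0.000228) in GcKO. Its exons overlap those of the gene Mut, which encodes methylmalonyl-CoA mutase on the other strand and was at 1.34 to 2.29 FPKM in WT and 1.69 to 1.95 in MUT libraries. The partners of Cenpq in its complex took other values, although the exons of both Cenpo and Cenpp overlap genes on the other strand. Ippk, which overlaps Cenpp and is identical to it over 317 nt, was at 34.4 to 46.8 FPKM in WT and 47.6 to 51.7 in MUT libraries, above Cenpp, so the Cenpp values are uncertain. Cenpo was at 14.9 to 18.1 FPKM in WT and 18.2 to 22.9 in MUT, at a log2 difference of 0.34 (95% interval -0.23 to 0.90), and Cenpp at 13.8 to 17.9 and 15.6 to 18.6, at 0.12 (-0.30 to 0.55). Cenpu was at 10.6, 12.02 and 6.87 FPKM in WT and at 4.50, 5.09 and 4.75 in MUT, below all WT libraries, but as deposited missed the threshold (-0.88, SE 0.30, adjusted p = 0.0503). In MUT, limma called Cenpu lower under quantile normalization (-1.02, adjusted p = 0.0447) and the abundance correction (-1.08, adjusted p = 0.0309). Under same-sum scaling it was at -0.012 and not called.

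Cenpn, which with CENP-L recognizes the CENP-A nucleosome, was at 379, 401 and 401 FPKM in WT, 178, 192 and 178 in MUT, 129, 174 and 186 in GcKO and 266, 321 and 256 in AmcKO oocytes. The AmcKO range lay below that of WT. No range of MUT or GcKO met either of these, and the log2 difference from WT was -1.10 (SE 0.16, adjusted p = 0.000353) in MUT and -1.29 (SE 0.16, adjusted p = 0.000162) in GcKO. Its call, but not its sign, was lost under same-sum scaling, at -0.11 and -0.25. Cenpl was at 7.30, 8.26 and 13.5 FPKM in WT, 5.33, 4.94 and 3.35 in MUT, 6.99, 4.36 and 5.43 in GcKO and 5.42, 3.72 and 3.19 in AmcKO oocytes, so all other groups lay below WT. Only in MUT was it called (-0.92, SE 0.30, adjusted p = 0.041), and the adjusted p rose to as much as 0.141 when WT replicate 5 or 6 or any MUT library was left out. In GcKO it was at -0.67 (SE 0.30, adjusted p = 0.128), and at 0.24 under same-sum scaling.

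Cenph, of the same complex as Cenpk, was at 250, 188 and 209 FPKM in WT, 144, 139 and 147 in MUT, 125, 158 and 162 in GcKO and 168, 224 and 163 in AmcKO oocytes. The MUT and GcKO libraries were below all WT libraries, at -0.58 (SE 0.17, adjusted p = 0.0265) and -0.54 (SE 0.17, adjusted p = 0.0383) as deposited. Without WT replicate 4 or 6 or any MUT library the adjusted p in MUT was up to 0.0873, and without WT replicate 4 or 6 or GcKO replicate 1 or 2 it was up to 0.131 in GcKO. Cenpa, the histone variant itself, was at 81.0, 63.5 and 35.1 FPKM in WT, 52.7, 65.1 and 75.8 in MUT, 52.3, 65.8 and 67.1 in GcKO and 59.6, 71.8 and 60.6 in AmcKO oocytes. The groups overlapped throughout, and the 95% interval of the MUT difference ran from -0.38 to 0.72. The other tested CCAN members, Cenpc1, Cenpi, Cenpm, Cenpt and Cenpw among them, were not called in MUT or GcKO. Cenpi was above 0 in all 9 libraries of the other groups, at 0.213 to 1.71 FPKM.

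In the KMN network, 4 of 9 tested members were lower in MUT and 3 in GcKO, against 11.3% and 11.4% of all genes. In both, 0 were higher, against 9.46% and 8.71%. The lower ones were 3 of the 4 NDC80 complex subunits and, in MUT, Dsn1 of the MIS12 complex. Spc25 was at 378, 337 and 376 FPKM in MUT, 290, 382 and 413 in GcKO and 746, 887 and 620 in AmcKO oocytes, against 805 to 936 in WT. The MUT and GcKO ranges lay below both others, at a log2 difference from WT of -1.26 (SE 0.17, adjusted p = 0.000238) in MUT and -1.28 (SE 0.17, adjusted p = 0.000226) in GcKO. In GcKO its adjusted p was 0.0564 under same-sum scaling, at -0.24.

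Spc24 was at 36.1, 37.6 and 44.7 FPKM in WT, 26.7, 21.2 and 19.5 in MUT, 14.2, 16.2 and 18.6 in GcKO and 30.6, 28.2 and 22.6 in AmcKO oocytes. Every library of the other groups was below every WT library. Spc24 fell by 0.79 on the log2 scale in MUT (SE 0.19, adjusted p = 0.011) and by 1.23 in GcKO (SE 0.19, adjusted p = 0.000713). Nuf2, which pairs with NDC80 at the microtubule end of the complex, was at 106, 88.2 and 85.5 FPKM in WT, 60.8, 49.1 and 53.0 in MUT, 42.2, 42.0 and 55.9 in GcKO and 86.6, 87.9 and 71.6 in AmcKO oocytes. The MUT and GcKO libraries of Nuf2 lay below every WT and AmcKO library, at -0.77 (SE 0.17, adjusted p = 0.00644) and -0.99 (SE 0.17, adjusted p = 0.00133).

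Ndc80 was far lower than its partners and more variable, at 11.3, 18.2 and 3.90 FPKM in WT, 4.07, 4.12 and 6.64 in MUT, 5.28, 3.71 and 8.75 in GcKO and 10.8, 9.23 and 6.66 in AmcKO oocytes. WT replicate 6 was at the level of the MUT libraries, the groups overlapped, and the difference of -0.85 in MUT had a 95% interval from -1.77 to 0.08. Dsn1 was at 248, 200 and 146 FPKM in WT, 116, 131 and 120 in MUT, 123, 144 and 151 in GcKO and 197, 182 and 188 in AmcKO oocytes. Dsn1 was called in MUT only (-0.66, SE 0.18, adjusted p = 0.0186), with an adjusted p of up to 0.0645 when WT replicate 4 or 5 or MUT replicate 1 or 3 was left out, while in GcKO it was at -0.47 (SE 0.18, adjusted p = 0.076) as deposited and at 0.17 and 0.56 under quantile and same-sum scaling. The difference between GcKO and MUT was not called for any member. Casc5, Mis12, Pmf1 and Zwint were not called in either comparison, with log2 differences from -0.46 to 0.45.

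The corona and motor genes, Cenpe, Cenpf, Zw10 and Zwilch, gave 0 calls among 4 in MUT and GcKO by limma. Of all genes, 20.8% and 20.2% were called in either direction. At an unadjusted limma p under 0.05 there were 0 of the 4, against 34.1% and 33.7% of all genes. Cenpf, a large coiled-coil protein of the fibrous corona, was the most even of the 4. It was at 36.4 to 36.7 FPKM in WT and 32.2 to 36.6 in AmcKO libraries, 33.5 to 36.0 in those of MUT and 33.9 to 41.9 in those of GcKO. Its log2 difference from WT was -0.06 in MUT (95% interval -0.39 to 0.27) and 0.06 in GcKO (-0.27 to 0.38).

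The 6 checkpoint genes went in both directions. Mad2l1 was at 574, 483 and 514 FPKM in MUT, 393, 485 and 703 in GcKO and 1014, 1271 and 860 in AmcKO oocytes, against 1292 to 1444 in WT. The MUT and GcKO ranges lay below both others, at a log2 difference from WT of -1.40 (SE 0.20, adjusted p = 0.000374) and -1.43 (SE 0.20, adjusted p = 0.000336). The AmcKO range also lay below that of WT. Ttk, the kinase (MPS1) that starts checkpoint signalling, was at 11.98, 9.98 and 10.4 FPKM in WT, 20.6, 18.5 and 24.7 in MUT, 34.2, 23.0 and 22.6 in GcKO and 21.3, 19.8 and 18.6 in AmcKO oocytes. All libraries of the 3 other groups were above all WT libraries, and the log2 difference from WT was 0.91 in MUT (SE 0.21, adjusted p = 0.00665), 1.20 in GcKO (SE 0.21, adjusted p = 0.00116) and 0.83 in AmcKO (SE 0.21, adjusted p = 0.113).

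Mad1l1, which anchors MAD2 at unattached kinetochores, was at 1.31, 1.48 and 2.55 FPKM in WT, 3.32, 1.96 and 5.07 in MUT, 4.85, 5.29 and 6.29 in GcKO and 2.93, 3.95 and 4.74 in AmcKO oocytes. It was called in GcKO (1.24, SE 0.32, adjusted p = 0.0144) but not in MUT (0.64, SE 0.32, adjusted p = 0.175), where replicate 2 lay within the WT range, and in GcKO its adjusted p was 0.0583 under quantile normalization. Bub1b, the checkpoint pseudokinase BUBR1, was at 32.5, 44.0 and 32.4 FPKM in WT, 55.0, 58.1 and 50.8 in MUT, 71.7, 38.8 and 39.1 in GcKO and 35.9, 37.1 and 38.9 in AmcKO oocytes. The MUT libraries were above all WT libraries, but as deposited the difference of 0.59 (SE 0.22, adjusted p = 0.0789) was not called, and in GcKO it was 0.40 (SE 0.22, adjusted p = 0.23) with replicate 1 far above the others. In MUT, limma called it higher under quantile normalization (0.86, adjusted p = 0.0441) and the abundance correction (0.83, adjusted p = 0.0395). Under same-sum scaling it was called too, at 1.56 (adjusted p = 0.000944). Bub1 and Bub3 were not called, at -0.23 and 0.24 in MUT and -0.25 and 0.16 in GcKO.

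The passenger complex also held members of opposite direction. Birc5 was at 2078, 2102 and 2097 FPKM in MUT, 1773, 2173 and 2401 in GcKO and 4129, 4700 and 3826 in AmcKO oocytes, against 4548 to 5017 in WT. As deposited it fell by 1.19 on the log2 scale in MUT (SE 0.15, adjusted p = 0.000151) and by 1.18 in GcKO (SE 0.15, adjusted p = 0.000166), and as said above this difference was about 0 under quantile normalization. Aurkc was at 152, 138 and 127 FPKM in MUT, 109, 131 and 155 in GcKO and 194, 179 and 190 in AmcKO oocytes, all below the 202 to 281 of WT. Its difference from WT was -0.77 in MUT (SE 0.17, adjusted p = 0.00509) and -0.86 in GcKO (SE 0.17, adjusted p = 0.00264), and it was not called under quantile normalization, at -0.15 and -0.20.

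Incenp rose. It was at 1.58, 2.99 and 2.05 FPKM in WT, 8.75, 8.76 and 8.43 in MUT, 12.8, 8.30 and 5.73 in GcKO and 5.05, 3.496 and 4.63 in AmcKO oocytes. Every library of the other groups was above every WT library, and the difference on the log2(FPKM + 1) scale, which understates the change of low transcripts, was 1.61 in MUT (SE 0.29, adjusted p = 0.00182) and 1.59 in GcKO (SE 0.29, adjusted p = 0.00196). Aurkb was at 3.83, 3.95 and 6.68 FPKM in MUT, 4.93, 3.91 and 4.73 in GcKO and 1.77, 3.91 and 1.92 in AmcKO oocytes, above the 0 to 2.77 of WT in MUT and GcKO. The call of Aurkb in MUT (1.33, SE 0.44, adjusted p = 0.0484) was lost, with an adjusted p of up to 0.187, when WT replicate 5 or 6 or any MUT library was left out, and in GcKO the difference was 1.28 (SE 0.44, adjusted p = 0.0571). Cdca8, which encodes borealin, was at 43.6 to 84.3 FPKM in WT and 58.2 to 66.6 in MUT libraries, within the WT range, at 0.12 (95% interval -0.36 to 0.60).

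A pair of Cenp symbols name proteins that are not CCAN subunits. Cenpj, a centriole assembly protein, was not called in MUT (0.28) or GcKO (-0.01). Cenpv was at 2.04, 9.21 and 3.93 FPKM in WT, 11.3, 8.86 and 17.0 in MUT, 9.21, 10.3 and 13.2 in GcKO and 11.8, 21.3 and 10.7 in AmcKO oocytes. WT replicate 5 reached the lowest MUT library, the call in MUT (1.28, SE 0.40, adjusted p = 0.0351) gave an adjusted p of up to 0.167 without WT replicate 4 or 6 or any MUT library, and in GcKO the difference was 1.14 (SE 0.40, adjusted p = 0.0585).

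Ratios of one member to another in the same library do not change when a library is multiplied by 1 factor, although quantile normalization alters them. The pairs were chosen after their values were seen, so the ratios are given without a test. Each sets a more abundant transcript over a lower one. Over all genes, the median log2 difference was -0.83 in MUT and -0.87 in GcKO at 100 FPKM or more in AmcKO, and 0.27 in each under 10 FPKM. A lower ratio is thus not particular to these pairs. Mad2l1 was 120.5 to 134.3 times Ttk in WT, 46.3 to 64.4 times in AmcKO, 20.8 to 27.9 times in MUT and 11.5 to 31.2 times in GcKO libraries. The MUT and GcKO libraries did not reach those of AmcKO, which in turn did not reach WT. Birc5 was 1522 to 2983 times Incenp in WT, 817 to 1344 times in AmcKO, 237 to 249 times in MUT and 139 to 419 times in GcKO. Cenpq was 28.3 to 36.6 times its complex partner Cenpp, whose level is uncertain as said above, in WT, 20.0 to 46.1 times in AmcKO, 7.63 to 9.09 times in MUT and 5.94 to 8.57 times in GcKO. Spc25 was 20.93 to 24.27 times Spc24 in WT and 20.4 to 23.6 times in GcKO libraries, which overlapped. It was 14.2 to 19.3 times Spc24 in MUT libraries, below WT, and 24.35 to 31.47 times in AmcKO libraries, above WT.

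**Figure D4:**
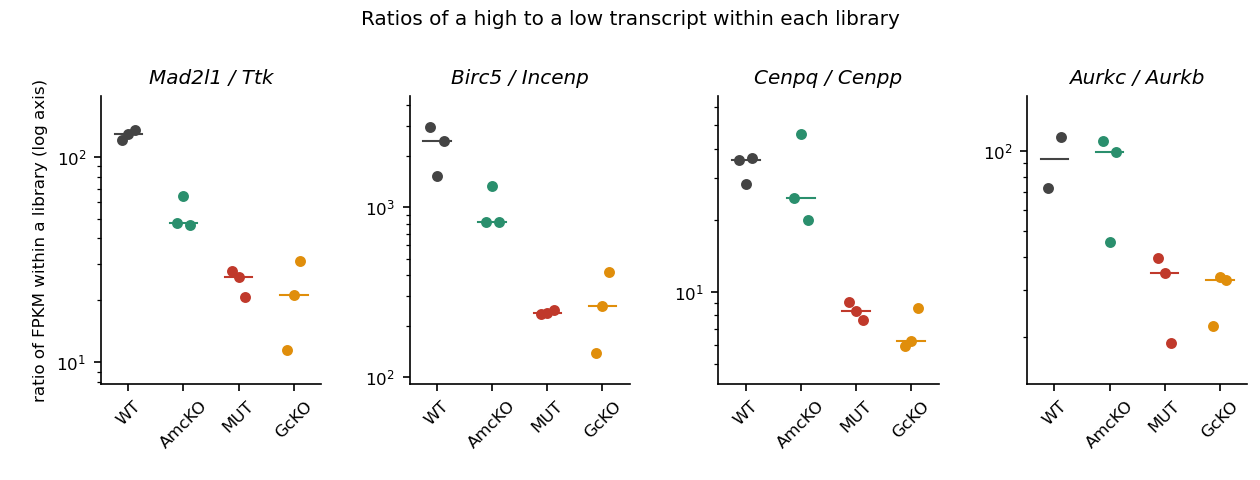
Ratio of the FPKM of 2 members within each library on a log axis, with 1 point per library (3 per group, and 2 in WT for Aurkc over Aurkb, where Aurkb was at 0 in replicate 6) and a line at the median. In all 4 pairs the MUT and GcKO libraries lie below every WT library. In Mad2l1 over Ttk and in Birc5 over Incenp the AmcKO libraries lie between them.

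Most members that fell were abundant. Members were classed by their mean in AmcKO libraries, which enter neither log2 difference but share in the fit's estimate of the spread. Of the members at 100 FPKM or more, 8 of 10 were called lower in MUT, or 80%, as were 68.8% of all 929 genes of that class. Of the 16 members at 10 to 100 FPKM 3 were lower, or 18.8%, as were 19.7% of 2461 genes, and of the 14 under 10 FPKM 1 was lower, or 7.14%, and 2 were higher, or 14.3%, against 1.84% and 9.22% of 7843 genes. In GcKO the shares lower were 70% of these members and 70.9% of all genes at 100 FPKM or more, and 18.8% and 19.7% at 10 to 100. At like abundance, the members' shares were thus near those of other transcripts. Across the 40 members, Spearman's rho between the log2 difference and the AmcKO level was -0.580 in MUT and -0.669 in GcKO, against -0.252 and -0.261 across all genes. The points of such a correlation share their libraries, and it is given as a description.

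**Figure D5:**
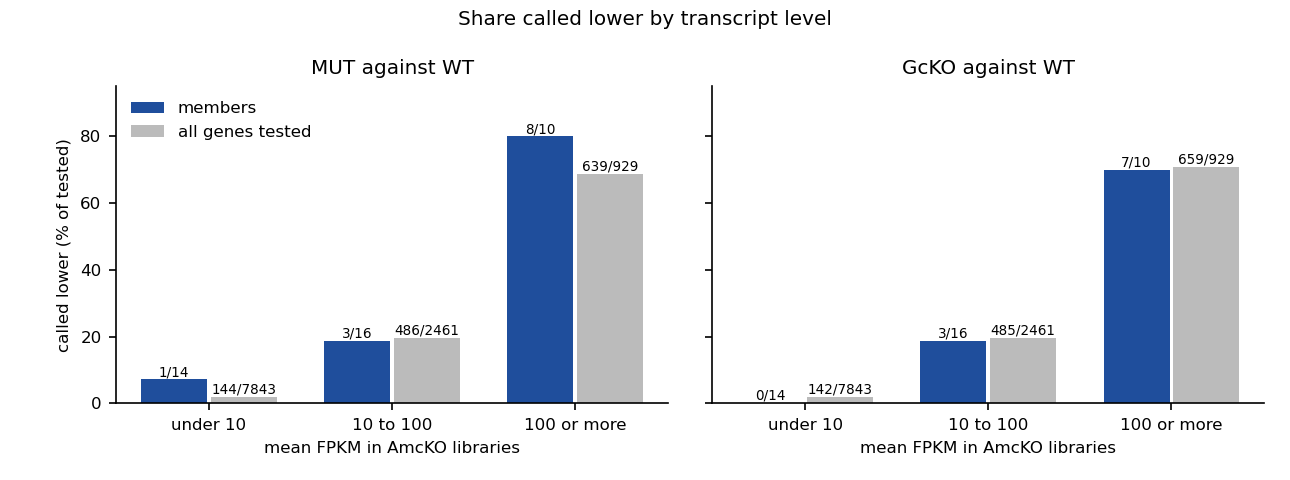
Percentage of tested genes called lower than WT in MUT and in GcKO oocytes (3 libraries per group), in 3 classes of mean FPKM in AmcKO libraries, for the members and for all genes tested, with the number called and tested above each bar. Members and all genes rise together from the lowest class to the highest, where 80% and 68.8% were lower in MUT and 70% and 70.9% in GcKO.

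When Cre was driven by Amhr2 instead, limma called 0 of 40 members in AmcKO against WT, where 0.116% of all genes were lower and 0.0979% higher, and 0.214% either. Of the members, 10 had an unadjusted p under 0.05, or 25%, against 15.6% of all genes. The AmcKO libraries lay below all WT libraries for 6 and above them for 7, against 8.61% and 9.22% of all genes. The 6 below were Aurkc, Cenpk, Cenpl, Cenpn, Mad2l1 and Spc24, all of them called lower in MUT. The 7 above were Cenpe, Cenpi, Cenpv, Incenp, Mad1l1, Ttk and Zwint. Of the members called in MUT or GcKO, the nearest to the threshold was Ttk, given above. The 95% intervals in AmcKO were from -0.84 to 0.02 for Mad2l1, -0.59 to 0.13 for Spc25, -0.49 to 0.13 for Birc5 and -0.89 to 0.10 for Cenpq, so for these members a fall as large as in MUT lay outside them. For other members called in MUT the interval held the MUT difference. These were Cenpl (-1.68 to -0.40), Spc24 (-0.95 to -0.11) and Cenph (-0.59 to 0.14) among the lower ones. Among the higher ones they were Ttk (0.39 to 1.27), Cenpv (0.63 to 2.34) and Aurkb (-0.36 to 1.54). For Incenp the interval was 0.13 to 1.39, and for Cenpk -1.49 to -0.29.

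Oocyte deletion and whole-body mutation gave no called difference between them. Limma called 0 of 40 members in GcKO against MUT, where 0.134% of all genes were lower, 0.0712% higher and 0.205% either, and 2 members, Cenpu and Spc24, had an unadjusted p under 0.05, or 5%, against 6.6% of all genes. The ranges lay apart for 2 members downwards and 2 upwards, against 6.87% and 6.42% of all genes. The 95% interval of the difference was -0.31 to 0.32 for Birc5, -0.46 to 0.40 for Mad2l1, -0.38 to 0.34 for Spc25 and -0.38 to 0.61 for Cenpq, but for Cenpk it reached 1.09 and for Mad1l1 1.28.

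The 2 knockouts, which share the floxed allele and differ in the Cre, were compared directly. In GcKO oocytes 6 of 40 members were lower than in AmcKO, against 4.79% of all genes, and 0 were higher, against 0.668%, or 5.46% of all genes in either direction, with 15 members, or 37.5%, and 19.3% of all genes at an unadjusted p under 0.05. The ranges lay apart for 11 members downwards and 4 upwards, against 11.6% and 12% of all genes. They were Cenpq (-1.35, SE 0.23, adjusted p = 0.00429), Spc25 (-1.05, SE 0.17, adjusted p = 0.00307), Mad2l1 (-1.01, SE 0.20, adjusted p = 0.00967), Birc5 (-1.001, SE 0.15, adjusted p = 0.00188), Nuf2 (-0.81) and Cenpn (-0.79). In each, all GcKO libraries were below all AmcKO libraries. In a fit of these 2 groups alone, limma called 0 members and 0 genes, with 2013 genes at an unadjusted p under 0.05, so the calls rest on the spread shared with WT and MUT. Mad2l1 was no longer called without GcKO replicate 2 or AmcKO replicate 4 or 5 (adjusted p up to 0.0603), nor Nuf2 without GcKO replicate 1 or 2 or AmcKO replicate 4 or 5 (up to 0.0609), while 10 members were lower and 1 higher without GcKO replicate 3. Scaled to the same sum, 3 members were lower and 15 higher, against 1.14% and 21.9% of all genes.

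The promoters are shown because transcripts of this machinery share promoter elements in dividing cells, namely CCAAT boxes and the cell cycle genes homology region (CHR). The sequences run from 250 bases before to 50 after the start of the gene in RefSeq on GRCm38.p6, and were found for 37 of 42 members. Those of Spc25 (chr2:69206164-69206463, minus strand), Cenpq (chr17:40934525-40934824, minus strand) and Ttk (chr9:83834439-83834738, plus strand) are printed 5′ to 3′, with every CCAAT box and every CHR, on either strand, in capitals. Spc25 and Cenpq fell and Ttk rose in both MUT and GcKO.
Spc25: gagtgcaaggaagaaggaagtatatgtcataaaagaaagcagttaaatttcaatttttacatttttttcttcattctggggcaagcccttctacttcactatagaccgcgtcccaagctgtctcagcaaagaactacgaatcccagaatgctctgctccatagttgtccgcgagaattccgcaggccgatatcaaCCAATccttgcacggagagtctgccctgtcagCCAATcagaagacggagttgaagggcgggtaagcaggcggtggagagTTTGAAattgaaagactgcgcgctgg
Cenpq: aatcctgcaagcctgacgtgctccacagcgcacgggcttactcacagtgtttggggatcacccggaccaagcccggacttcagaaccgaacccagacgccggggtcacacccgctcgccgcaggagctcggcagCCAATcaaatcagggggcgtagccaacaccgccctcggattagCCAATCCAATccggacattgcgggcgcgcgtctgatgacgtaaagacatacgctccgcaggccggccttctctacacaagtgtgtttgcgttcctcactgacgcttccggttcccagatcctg
Ttk: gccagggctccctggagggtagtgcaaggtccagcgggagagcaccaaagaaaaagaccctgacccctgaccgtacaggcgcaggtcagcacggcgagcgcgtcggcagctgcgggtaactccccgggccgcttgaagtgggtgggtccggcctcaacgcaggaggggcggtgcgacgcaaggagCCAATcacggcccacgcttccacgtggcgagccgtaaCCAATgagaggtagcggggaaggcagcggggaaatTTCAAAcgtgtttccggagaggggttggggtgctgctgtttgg
The letters searched were TTTGAA or TTCGAA for the CHR and CCAAT for the box, on both strands, and neither motif contains the other.

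Spc25 and Ttk each held 1 CHR and 2 CCAAT boxes close to the start, although they moved in opposite directions, and Cenpq held 3 boxes and 0 CHR. Of the 37 members, 16 held a CHR, or 43.2%, against 19.4% of 27025 promoters, and 23 held a CCAAT box, or 62.2%, against 37.9%. Both together were in 35.1% of members and 7.7% of all promoters. Among the 11 members with a promoter that were called lower in MUT or GcKO, 3 held a CHR and 7 a box, and among the 23 called in neither, 12 and 15. Birc5 and Mad2l1 held neither motif in this window. These are matches of letters and not measured sites.

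Other genes of the pathway that are no members, among them centromere loading factors, shugoshins and spindle-kinetochore partners, were counted as deposited. Of 33 tested, 3 were lower and 3 higher in MUT, against 11.3% and 9.46% of all genes, and 6 lower and 3 higher in GcKO, against 11.4% and 8.71%. There were 0 calls in AmcKO against WT and in GcKO against MUT, and 2 lower and 0 higher in GcKO against AmcKO, against 4.79% and 0.668% of all genes. Apitd1, which encodes the CCAN subunit CENP-S, was at 1230 to 1420 FPKM in WT and 1197 to 1441 in AmcKO libraries, but at 453 to 637 in those of MUT and 562 to 740 in those of GcKO. As deposited it was thus at the level of Mad2l1 and, like it, lower in all MUT and GcKO libraries, at -1.22 (SE 0.17, adjusted p = 0.000265) and -1.04 (SE 0.17, adjusted p = 0.000751). Unlike Mad2l1, Apitd1 lost its call on the other scales. In MUT and GcKO it was at -0.23 and 0.0023 under same-sum scaling and at -0.34 and -0.09 under quantile normalization. Under the abundance correction it was at -0.22 and 0.027. Knstrn, a spindle-kinetochore protein, was at 115 to 125 FPKM in WT and 68.0 to 73.0 in MUT (-0.76, SE 0.14, adjusted p = 0.00223), and Ska2, of the SKA complex, at 26.0 to 37.8 and 15.6 to 23.4 (-0.68, SE 0.21, adjusted p = 0.0356). Kif2c, the microtubule-depolymerizing kinesin MCAK, was at 4.31 to 5.38 FPKM in WT and 7.87 to 9.52 in MUT (0.70, SE 0.23, adjusted p = 0.0437), and Ndel1, a dynein regulator, at 5.89 to 10.8 and 16.5 to 19.2 (1.00, SE 0.29, adjusted p = 0.0265).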

How the data were processed

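RNA-Seq was done on 12 libraries of 20 GV oocytes, 3 each from WT, MUT, GcKO and AmcKO females. Per the labels, the authors mapped trimmed read pairs to the mm10 build (TopHat2 2.0.13), and the deposited FPKM values, 1 column per library, were computed and normalized by Cufflinks 2.2.1. The gene annotation, and whether strand was used, are not given in the sources used here. The deposited table also holds 18 columns of the authors' own comparisons (fold changes on a log2 scale, and p- and q-values), which were not used. FPKM holds no counts, so no counting error or detection floor could be given.

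Genes were tested if any library reached 1 FPKM (11233 genes), and their log2(FPKM + 1) values were fitted with limma 3.58.1 in R 4.3.3, all 12 libraries in 1 fit by group with an abundance trend and 8 residual degrees of freedom. The call was an adjusted p (Benjamini-Hochberg over all genes tested) under 0.05. The code was tested on simulated data. Members and lists were chosen with earlier results of these data known. Per-library values are given for members called in at least 1 of the 5 contrasts and for Aurkb, Aurkc, Birc5, Mad2l1, Bub1b, Cenpa, Ndc80 and Cenpq, and outside the members for Dpagt1 and for listed pathway genes called in 2 or more contrasts. In the text, Cenpu, Cenpo, Cenpp, Cenpf, Cdca8, Cenpi, Cenpb, Ippk, Gja1, Inha, Hsd17b1, Cyp19a1, Serpine2, Dppa3 and the gene Mut were added after their values were seen. Alternatives were pseudocount 0.1, no filter, a mean FPKM of at least 5, 3 other scalings, no trend, only the 2 groups compared, a fold change over 2, the label number as a block, each library left out, and, chosen after seeing the data, loess corrections for transcript length and abundance. Promoters came from RefSeq (GRCm38.p6), exon overlaps from GENCODE M21, and near-identical transcripts (at least 95% over at least 300 nt) from blastn 2.17.0. Tables were made with Python 3.11.15 and pandas 2.3.3.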

Additional observations from a re-analysis of the deposited data

Results flagged for a closer look

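For 6 members the difference from WT was not the same in GcKO and AmcKO oocytes, since the direct test of GcKO against AmcKO, in which the shared WT libraries cancel, passed the threshold in limma as deposited with all 4 groups in the fit, but for 0 of the 6 with only these 2 groups. On the log2(FPKM + 1) scale the GcKO minus AmcKO difference was -1.35 for Cenpq, -1.05 for Spc25, -1.01 for Mad2l1, -1.001 for Birc5, -0.81 for Nuf2 and -0.79 for Cenpn, and all 3 GcKO libraries were below all 3 AmcKO libraries in each. Under quantile normalization Cenpq was called and the other 5 members were not, with Cenpq at -0.82 (adjusted p = 0.00999), whereas Birc5 was at -0.01 (adjusted p = 0.998). GcKO libraries are numbered 1 to 3 and AmcKO libraries 4 to 6, so anything that follows the numbers cannot be told apart from this difference.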

How the results depend on the processing

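As deposited, 12 members were called lower and 4 higher in MUT, 10 and 3 in GcKO, and 6 and 0 in GcKO against AmcKO. Same-sum scaling changed these to 5 and 23, 3 and 27, and 3 and 15. Requiring a fold change over 2 left 6 lower in MUT, and no filter on low values left 2 higher in MUT. The length correction gave 5 higher in GcKO and 1 higher in GcKO against AmcKO. For GcKO against AmcKO, limma called 3 lower without the trend, 2 with the abundance correction, 10 lower and 1 higher at a mean FPKM of at least 5, 1 lower under quantile normalization and 0 with only the 2 groups. Leaving out each library gave 9 to 12 lower and 2 to 3 higher in MUT (2 higher without any one MUT library or WT replicate 6), 9 to 11 and 3 to 4 in GcKO, and 4 to 10 and 0 to 1 in GcKO against AmcKO, where 10 and 1 came without GcKO replicate 3. AmcKO against WT and GcKO against MUT gave 0 calls under every alternative run.

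Signs turned under same-sum scaling for Aurkc (0.22 in MUT, 0.17 in GcKO), Cenph (0.41 and 0.50), Nuf2 (0.22 and 0.035), Dsn1 (0.33 and 0.56), Ndc80 (0.0097 and 0.23), in MUT for Spc24 (0.17) and in GcKO for Cenpl (0.24). They turned under quantile normalization for Birc5 (0.054 and 0.13), Cenph (0.013 and 0.14) and, in GcKO, Dsn1 (0.17), and under the abundance correction for Birc5 (0.10 and 0.16) and Cenph (0.021 and 0.12). With a library left out, Cenpa in MUT ranged from -0.17 without WT replicate 6 to 0.43 without WT replicate 4. It was at 0.53 under quantile normalization and 0.51 under the abundance correction, called under neither. Under same-sum scaling it was called higher, at 1.15 (limma adjusted p = 0.00229). The cause of these changes was not tested. Deviations from the group mean of same-numbered MUT and GcKO libraries correlated at -0.02, 0.04 and -0.04, and of WT and AmcKO libraries at 0.02, 0.01 and -0.03. No pairing by label number was thus seen, but such values cannot tell whether same-numbered libraries were handled together. With the replicate number as a block, 0 members and 0 genes were called in AmcKO against WT and in GcKO against MUT, with 1150 and 800 genes at an unadjusted p under 0.05.

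With 3 libraries a group and FPKM only, low transcripts such as Aurkb, Incenp, Cenpv and Mad1l1, for which 1 fragment is worth more in WT, are the least certain.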

Other observations

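Members also differed in how evenly the libraries of a group agreed. Birc5 lay within 4548 to 5017 FPKM in WT and 2078 to 2102 in MUT libraries, but within 1773 to 2401 in GcKO. GcKO replicate 1 had the lowest FPKM sum of all libraries and, of the GcKO libraries, the lowest Birc5, Mad2l1, Spc25, Cenpq, Cenpn and Cenpk, but also the highest Incenp (12.8 FPKM), Ttk (34.2 FPKM) and Bub1b (71.7 FPKM). GcKO replicate 3 had the highest sum of the GcKO libraries, the highest Birc5, Mad2l1, Spc25, Cenpq, Cenpn and Cenpk, and the lowest Incenp (5.73 FPKM) and Ttk (22.6 FPKM). The members' share of the library sum was nonetheless 0.784, 0.757 and 0.776% in GcKO replicates 1, 2 and 3. In AmcKO libraries this share was 0.838, 0.838 and 0.835%, above all other libraries, the highest of which was at 0.8005% in WT.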
